A study of Mus musculus with 7 samples.

Results

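The wild-type (WT) neural stem cell (NSC) transcriptome was described from the 4 samples labelled wild-type replicates 1 to 4, out of 7 samples in the series. The members were chosen by sample title alone, and the samples with a null mutation of Smchd1 entered only through their level of Smchd1 itself. The cells were mouse NSCs of the FVB/N strain with a wild-type Smchd1 gene, grown in a proliferation medium with the growth factors EGF and bFGF. All 4 WT samples shared strain, genotype and medium, and no treatment, time point or animal age was given. Their polyadenylated RNA was read as long cDNA molecules on nanopores, with no amplification step, in 2 batches that differed in the library kit version. Batch 1 held WT replicate 2, batch 2 held WT replicates 3 and 4, and the reads of WT replicate 1 come from both. The sources do not say whether the replicates came from separate animals or derivations, so the spread given here may in part be technical.

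NSCs are the dividing precursors of the brain, which can renew themselves and give rise to neurons, astrocytes and oligodendrocytes. In the developing forebrain they correspond to radial glia, which carry the transcription factor Sox2, the intermediate filaments nestin and vimentin, the fatty acid binding protein Fabp7 and the glutamate transporter encoded by Slc1a3. In culture, EGF and FGF keep them in division and hold back differentiation, and withdrawal of these factors lets glial and neuronal genes rise.

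The 4 samples held 18.2 M gene counts, from 3.87 to 5.85 M per sample, and levels are given as CPM, the counts of a gene per M (mega) gene counts of the sample. Of the 55335 annotated genes, 32646 had a count in at least 1 sample, 17248 in all 4 and 8017 in a single sample. The limit of detection was set at 3 counts, which came to between 0.513 and 0.776 CPM depending on the library. Smchd1, the targeted gene of the series and a repressor of chromatin, had 70.1, 55.3, 73.7 and 55.5 CPM in WT replicates 1 to 4, and between 12.4 and 18.5 CPM in the 3 null samples. The Y-linked genes Eif2s3y and Ddx3y, which encode a translation initiation factor and an RNA helicase, had 70.9 to 103 CPM and 46.5 to 61.6 CPM, and Xist, the long RNA of the inactive X chromosome, had at most 2 counts in any WT sample. Every pair of samples differed by more than sampling noise, with a chi-square over genes of 6.12 or more times its degrees of freedom, so none was taken to be a repeat of another library. This does not show that the samples came from separate cultures.

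To see which kinds of RNA the cells held, counts were summed by annotated gene class. Nuclear protein coding genes took 75.8 ± 1.14% of counts (SD, n = 4), and processed pseudogenes, which are retrotransposed copies of messenger RNAs, took 17.0 ± 1.67%. Other pseudogenes took 2.41 ± 0.43%, genes of the mitochondrial genome 3.19 ± 0.59%, long non-coding RNA (lncRNA) genes 1.36 ± 0.10% and all other classes 0.162 ± 0.029% (SD, n = 4 each). The 95% binomial interval (Wilson) of a class share in a single sample was at most 0.0432 percentage points to either side, which covers counting error only. The profile was broad. The 10 genes with most counts took 5.83 ± 0.70% of a sample (SD, n = 4), 711 genes held 50% of the summed counts and 5702 genes held 90%. A mean of at least 10 CPM was reached by 9566 genes, at least 100 CPM by 1982 and at least 1000 CPM by 121.

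**Figure D1:**
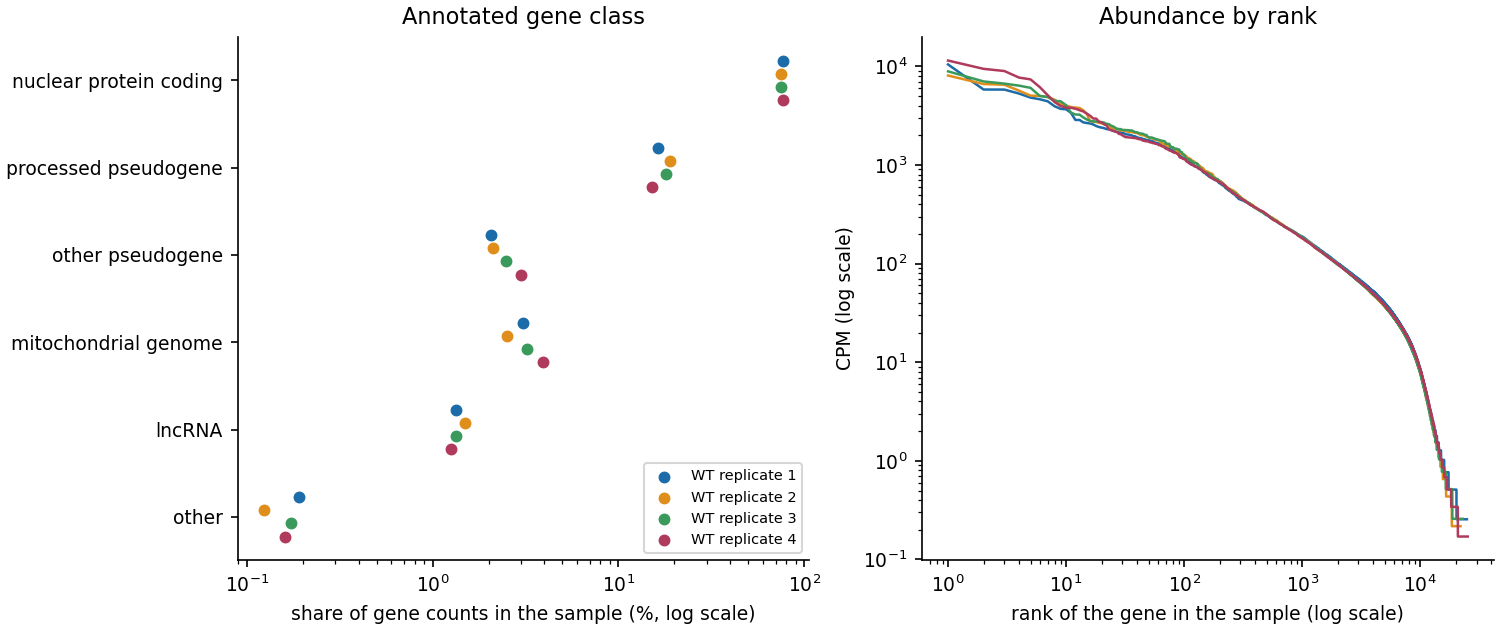
Left, share of gene counts (%, log scale) in each annotated gene class, 1 point per WT sample. Right, CPM of each gene against its rank in the sample (both log scales), 1 line per WT sample. Nuclear protein coding genes lie at 75.8% on average and pseudogenes next, and the 4 rank curves lie close together except at the highest ranks and at single counts.

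Most pseudogene counts lay in copies that closely match a coding gene. Of 1012 pseudogenes with a mean of at least 5 CPM, 927 matched the transcript of a named coding gene over at least 70% of their length at 90% identity or more (blastn), and these held 95.9% of all pseudogene counts. Of the CPM in matched copies, counted with Gm10076, a lincRNA that matches the ribosomal protein gene Rpl41, 59.6% belonged to copies of cytosolic ribosomal protein genes. A read of such a copy and a read of its coding gene can carry the same letters, so counts within these families are uncertain. In 171 of 432 families the coding gene held under 50% of the family sum, and in 61 it held under 10%.

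The case of Rps29, a protein of the small ribosomal subunit, shows how complete the likeness can be. Its coding sequence and the processed pseudogene Gm14303 are the same over all 171 bases, so no base within them tells the genes apart. Rps29 itself had 289, 409, 363 and 291 CPM in WT replicates 1 to 4. Gm14303 had 3669.8, 4006, 4039.6 and 3592 CPM in the same samples, and its 22379.6 CPM per kb of gene length was the highest value of any gene. The single-exon copy therefore held most of the family in every sample. The same held for Ppia, the peptidyl-prolyl isomerase cyclophilin A, which had 243 ± 42.7 CPM (SD, n = 4) against 4756 ± 333 CPM for its copy Gm10123, identical over all 490 of its bases. Gapdh, the glycolytic enzyme often used as a reference gene, had 11.2 ± 1.13 CPM, and its 11 copies together had 1116 ± 173 CPM (SD, n = 4). Fdps, an enzyme of isoprenoid synthesis, had between 1 and 5 counts per sample, against 287 ± 55.8 CPM (SD, n = 4) for its copy Gm3571.

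Mitochondrial RNA was split in the same way. The highest gene by CPM in the whole profile was mt-Cytb, the cytochrome b of respiratory complex III, with 10452, 8073, 8898 and 11448 CPM in WT replicates 1 to 4. It was highest in WT replicate 4 and lowest in WT replicate 2. Nuclear pseudogenes matched to mitochondrial genes, 13 in number, took a further 2.31 ± 0.43% of counts, which raised the share to 5.51 ± 1.00% (SD, n = 4) when added to the mitochondrial genome. One of them, Gm28661 on chromosome 1, is identical to mt-Co2, subunit 2 of cytochrome c oxidase, over all 681 of its bases. Gm28661 had 5822, 5665, 7029.5 and 8965 CPM in WT replicates 1 to 4, and mt-Co2 had 4418, 4588, 6053 and 7690.5 CPM. Both were highest in WT replicate 4 and next in WT replicate 3, the samples of batch 2 only.

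**Figure D2:**
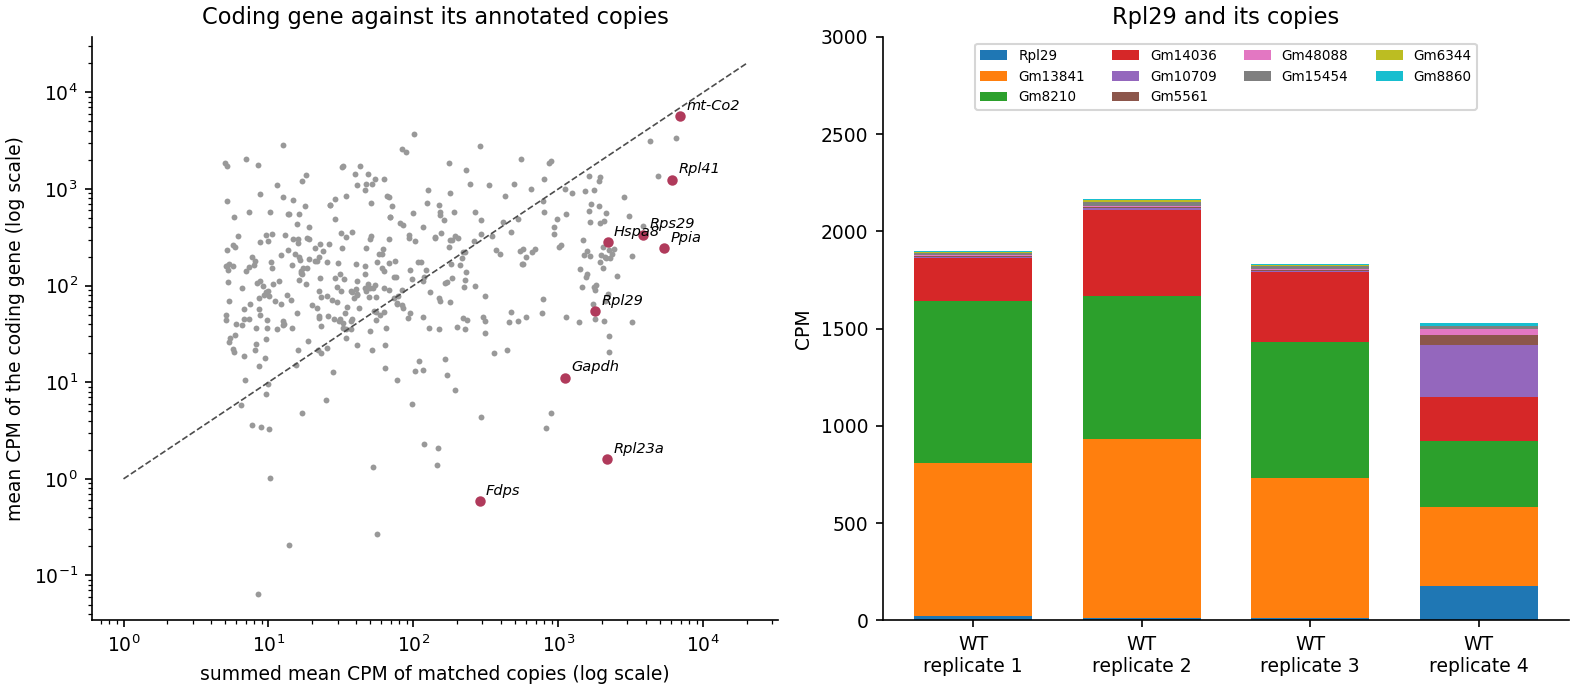
Left, mean CPM of each coding gene (vertical) against the summed mean CPM of its matched copies (horizontal, both log scales), 1 point for each of 432 families, with the line of equal values dashed. Right, CPM of Rpl29 and 9 copies stacked for each WT sample. The families named in the plot lie below the line, and in WT replicate 4 the Rpl29 family holds more Gm10709 and Rpl29 and less Gm13841 and Gm8210.

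Among nuclear protein coding genes, Fabp7 (chr10:57784881-57788450, plus strand, GRCm38) ranked first by CPM. This carrier of fatty acids in radial glia had 5296, 5012, 6681 and 9431 CPM in WT replicates 1 to 4, with a mean of 6605 ± 2020.1 CPM (SD, n = 4). WT replicate 4 was the highest and WT replicates 1 and 2 the lowest, and the highest value was 1.88 times the lowest. The next places by CPM were held by Ckb, the brain form of creatine kinase (3741 ± 303 CPM, SD, n = 4), and by Dbi, the acyl-CoA binding protein (2868 ± 306 CPM, SD, n = 4). They were followed by Rps20, of the small ribosomal subunit, Tmsb4x, which binds actin monomers, and Ptn, a secreted growth factor. Per kb of gene length, 4 of these genes stood in the order of Fabp7 at 5284, Dbi at 2017, Tmsb4x at 1925, and Ckb at 1292 CPM per kb.

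Markers of neural stem cells and radial glia were present throughout. Of the 30 genes on this list, 28 had a mean of at least 1 CPM and 27 of at least 10 CPM. Of these 27, 12 were highest in WT replicate 1 and 6 in WT replicate 4 (against 31.1% and 26.9% of all genes). Under TMM factors the counts were 5 and 9, so the list as a whole had no clear highest sample. Of the 27, 6 differed by 2-fold or more between samples (22.2% against 13% of all genes). Vim, the filament vimentin, had 2301, 2270.3, 2314 and 2179 CPM in WT replicates 1 to 4, a spread of only 1.06 times. Ptprz1, a receptor phosphatase of radial glia, had 1411, 813, 1104 and 1543 CPM. It was lowest in WT replicate 2.

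The 3 other genes that define the label were also well above the limit of detection. Slc1a3, the glial glutamate transporter, had 624, 561, 619.6 and 1006 CPM in WT replicates 1 to 4. Sox2, which holds the progenitor state, had 303, 330.3, 333 and 429 CPM, and was, like Slc1a3, highest in WT replicate 4. Nes, which encodes nestin, had 389, 401, 279 and 211 CPM and ran the other way, with its lowest level in WT replicate 4. Per kb of gene length, Fabp7 stood at 5284, Sox2 at 169.5, Slc1a3 at 82.3 and Nes at 49.9 CPM per kb. In these bulk samples, fewer cells of a type and less RNA per cell cannot be told apart.

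Genes of the Notch pathway, which keeps neighbouring progenitors from differentiating, differed more. Hes5, a repressor induced by Notch, had 44.0, 82.9, 50.7 and 152 CPM. Notch1, a receptor of the pathway, had 15.1, 1.74, 18.9 and 14.4 CPM, and so stood low in WT replicate 2 alone. Id3, an inhibitor of bHLH factors and a target of BMP signals, had 369, 533, 372 and 647 CPM. Hes5 and Id3 were highest in WT replicate 4 and second in WT replicate 2. Of the 15 members of the Notch, BMP and Id list with a mean of at least 10 CPM, 5 differed by 2-fold or more between the highest and the lowest sample (33.3%, against 13% of all 9566 genes at that level).

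Among regional genes, 4 of 10 on the forebrain list reached a mean of 10 CPM and 0 of 16 on the midbrain and hindbrain list did. Lhx2, Emx2 and Otx1, homeobox factors of the forebrain, had mean levels of 79.6 ± 27.0, 49.8 ± 7.38 and 22.6 ± 2.29 CPM (SD, n = 4). Lhx2 was lowest in WT replicate 4, with 81.0, 86.4, 108 and 43.1 CPM in WT replicates 1 to 4. Meis2, a homeobox factor of the ventral forebrain among other regions, had 77.4 ± 8.15 CPM (SD, n = 4), while Nkx2-1, Lhx6 and Lhx8, which mark ventral forebrain lineages, had 0 counts in every sample. Zic1, a zinc finger factor on the ventral forebrain list, had 22.8, 9.14, 45.5 and 17.4 CPM, highest in WT replicate 3. Of the 16 midbrain and hindbrain genes, 12 had at most 3 counts in every sample, among them En1, Pax2 and Hoxa2. Six3, an anterior forebrain factor, had 13.6 CPM in WT replicate 1 and at most 1.03 CPM in the other 3 samples.

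Most markers of cells from outside the neural lineage were near the limit of detection, with the exceptions of Acta2 and Thy1. The summed CPM of 12 microglia and leukocyte genes lay between 2.83 and 4.44, and 9 of them had at most 3 counts in every sample, including C1qa, Aif1 and Tmem119. The 10 endothelial genes summed to between 5.22 and 9.31 CPM, with Cdh5 and Tek at most 3 counts. The 10 pluripotency genes summed to between 1.29 and 3.07 CPM, with Pou5f1 at most 3 counts. The pericyte and fibroblast list summed to 23.01, 10.01, 19.9 and 38.6 CPM. In it, Acta2, the actin of smooth muscle, had 19.4, 8.49, 16.8 and 7.52 CPM, lowest in WT replicate 4. Thy1, a surface protein of fibroblasts and of neurons, had 3, 6, 6 and 149 counts, or 25.5 CPM in WT replicate 4, and its part in the other differences of this sample was not tested. In the same list 7 of 12 genes, Dcn and Lum among them, had at most 3 counts in every sample. Foxj1, the master factor of ependymal cilia, had 31.8 ± 8.32 CPM (SD, n = 4), but the other 9 ependymal genes stayed below 10 CPM.

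Neuronal genes were mixed. Of 24 genes on the list, 9 had at most 3 counts in every sample, including Neurod1, Tbr1, Eomes and Slc17a7, which mark committed or glutamatergic neurons. Map2, a microtubule protein of dendrites, had 379, 333, 349.6 and 341 CPM and varied little between samples. Dcx, which marks migrating neuroblasts, had 12.5, 8.49, 3.10 and 36.1 CPM, with the highest level in WT replicate 4 and the lowest in WT replicate 3. Elavl3, an RNA binding protein of young neurons, had 18.2, 23.1, 23.5 and 57.9 CPM, again highest in WT replicate 4.

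**Figure D3:**
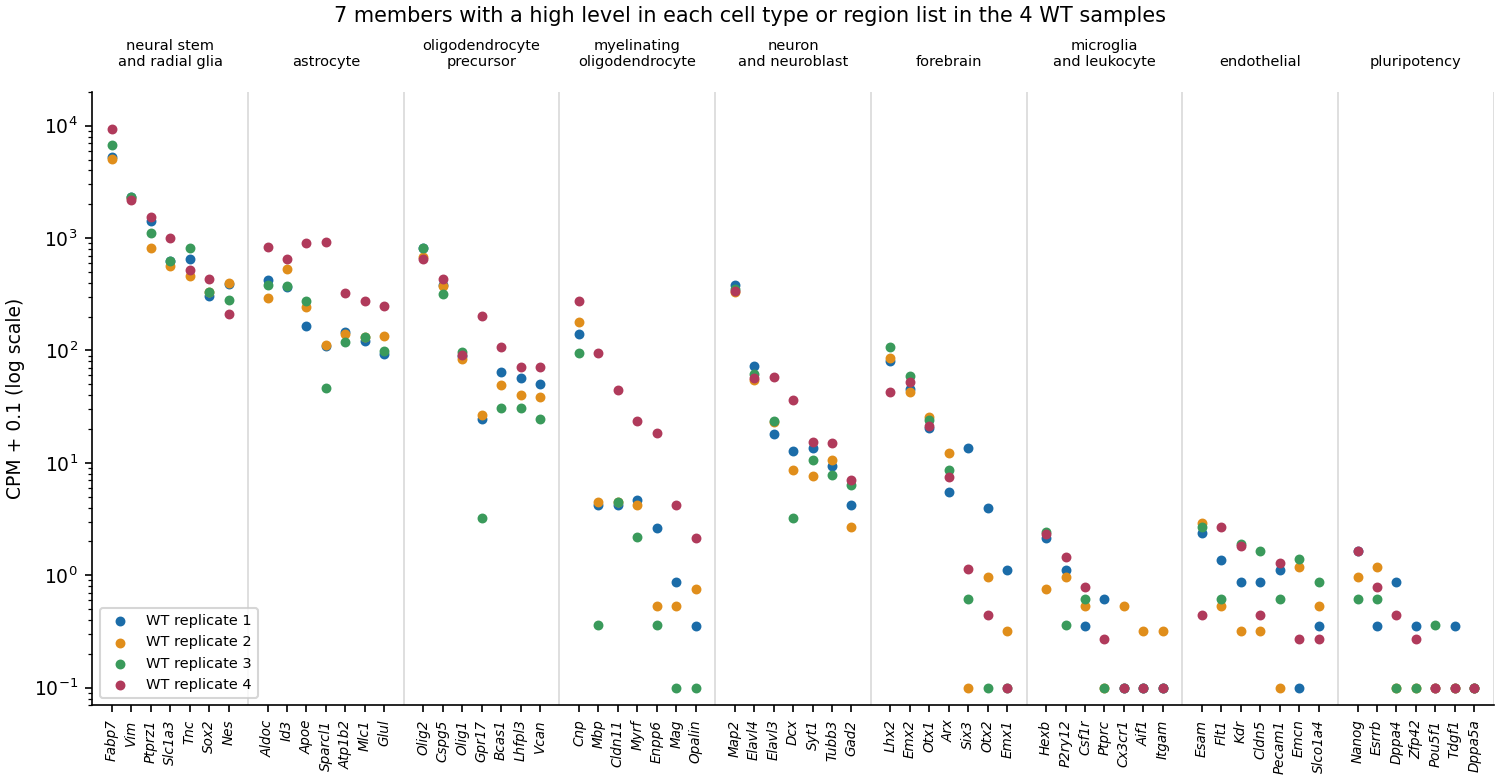
CPM + 0.1 (log scale) of 7 members with a high mean CPM in each cell type or region list, 1 point per WT sample, with 0 counts drawn at 0.1. Stem cell markers lie highest, astrocyte and oligodendrocyte genes are spread out with WT replicate 4 on top in most, and microglia, endothelial and pluripotency genes lie lowest.

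Astrocyte genes set WT replicate 4 apart from the other 3 samples. The 20 genes summed to 1823, 1902, 1768 and 5073 CPM in WT replicates 1 to 4. The sums of the other samples lay close together, and WT replicate 4 stood far above them. Of 15 members with a mean of at least 10 CPM, 14 were highest in WT replicate 4 (15 under TMM factors or DESeq2 size factors). Of all genes at that level, 26.9% were highest in WT replicate 4. The filter takes the mean over all 4 samples, so members and other genes alike can pass it through WT replicate 4 alone. Among the 15 members, 11 differed by 2-fold or more (73.3%, against 13% of all genes at that level). The median ratio of highest to lowest was 2.72 for the members and 1.49 for all 9566 genes.

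Sparcl1, a secreted matrix protein of astrocytes, had 109, 112, 46.3 and 921 CPM in WT replicates 1 to 4. Apoe, the lipid carrier of astrocytes, had 166, 244, 274 and 905 CPM, and Aldoc, the brain form of aldolase, had 422, 292, 381 and 830.5 CPM. In each of these WT replicate 4 stood apart at the top, and the lowest sample was a different one. S100b, a calcium binding protein, had 11.2, 11.3, 3.36 and 64.8 CPM. Gfap, the filament that defines mature astrocytes, was nearly undetected, with 0.511, 2.39, 0.776 and 5.98 CPM, or between 2 and 35 counts.

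Many genes of the oligodendrocyte lineage showed a further ordering, with WT replicate 3 at the bottom and WT replicate 4 at the top. The sum of the 14 precursor genes varied less, with 1631, 1416, 1381 and 1902 CPM in WT replicates 1 to 4. Its highest value was 1.38 times its lowest, and WT replicates 2 and 3 lay close together. Of 12 precursor genes with a mean of at least 10 CPM, 10 were highest in WT replicate 4 (against 26.9% of all genes). Of the same 12, 10 were lowest in WT replicate 3, and the share over all genes was not computed. The filter takes the mean over all 4 samples, so a gene can pass it through WT replicate 4 alone. Pdgfra, the growth factor receptor of precursors, had 42.7, 33.3, 8.02 and 68.7 CPM in WT replicates 1 to 4. Gpr17, a receptor of committed precursors, had 24.5, 26.3, 3.10 and 205 CPM, and Sox10, the factor that specifies the lineage, had 8.44, 14.6, 2.07 and 41.2 CPM. Thus 9 of the 12 differed by 2-fold or more, or 75% against 13% of all genes. Olig2, which cultured NSCs with EGF and FGF also express, did not follow this order, with 808, 674, 811 and 652 CPM. Its homologue Olig1 varied by 1.17 times only.

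Genes of myelinating oligodendrocytes were low in 3 samples and higher in WT replicate 4. The 11 genes summed to 182, 211, 114 and 676 CPM in WT replicates 1 to 4. Cnp, a myelin enzyme already present in precursors, had 139, 179, 95.7 and 277 CPM, most of the sum in WT replicates 1 to 3 but not in WT replicate 4. Mbp, the basic protein of myelin, had 16, 20, 1 and 561 counts, or 4.09, 4.35, 0.259 and 95.9 CPM. Late genes stayed near the limit, since Mobp and Mal had at most 3 counts in every sample and Mal had 0 counts throughout, which allows up to 0.776 CPM in the smallest library. WT replicates 3 and 4, the lowest and the highest, were both sequenced in batch 2 only, and the part of the batch in these levels was not tested. The counts of precursor genes highest in WT replicate 4 and lowest in WT replicate 3 were 10 and 10 under TMM factors and DESeq2 size factors too.

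Cell cycle genes ran against the glial genes. All 32 members had at least 1 CPM, and they summed to 5820.5, 5449.8, 5342 and 4259 CPM in WT replicates 1 to 4. Of 30 members with a mean of at least 10 CPM, 26 were lowest in WT replicate 4, a count that did not change under TMM factors, DESeq2 size factors or a total without pseudogenes. Among the 1247 genes of any kind over 2-fold, 26.9% were lowest in WT replicate 4, and the share over all 9566 genes was not computed. The median log2 ratio of a member to the median of the other samples was -0.57 in WT replicate 4. Pcna, the sliding clamp of DNA replication, had 329, 381, 328 and 214 CPM. Rrm2, which makes deoxynucleotides, had 363, 347, 344 and 236 CPM, and Cdk1, the kinase of mitosis, had 329.6, 376, 339 and 248 CPM. The 1 member that was highest in WT replicate 4 was Ccnd2, a D-type cyclin, with 767, 674, 843 and 1012 CPM. These differences were modest, since 8 of the 30 members reached 2-fold (26.7% against 13% of all genes).

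Cell cycle inhibitors were expressed beside them, and their sum varied by 1.17 times only. Cdkn1a, the p21 inhibitor, had 427, 696, 518 and 453 CPM, highest in WT replicate 2. Cdkn2a, the locus of p16 and p19 that rises in culture, had 117, 27.6, 113 and 117 CPM, so that WT replicate 2 stood alone at the low end. Targets and regulators of EGF and FGF signalling summed to 2348, 2055, 2273 and 1904 CPM, lowest in WT replicate 4. Of 14 such genes with a mean of at least 10 CPM, 0 differed by 2-fold (against 13% of all genes). Dusp6, Egr1, Spry2 and Spry4, which are induced by or restrain this signalling, had mean levels of 241 ± 51.2, 213 ± 45.1, 208 ± 21.9 and 176 ± 37.7 CPM (SD, n = 4).

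Energy metabolism followed another division of the samples. The 21 glycolysis genes, read without their pseudogenes, summed to 3632, 4578, 3378 and 5898 CPM in WT replicates 1 to 4, with WT replicates 2 and 4 above WT replicates 1 and 3. Of these genes, 17 were highest in WT replicate 4 (against 26.9% of all genes), or 16 under TMM factors. The sum was lowest in WT replicate 3, but in WT replicate 1 under TMM factors (3377.5 against 3423 CPM in WT replicate 3). Of the 21 genes, 8 reached 2-fold (38.1% against 13%). Ldha, which makes lactate, had 674, 1129.9, 725 and 1141 CPM. Tpi1, the triose phosphate isomerase, had 367, 572, 316 and 782 CPM. Slc16a3, the exporter of lactate, had 27, 89, 3 and 225 counts, or 6.90, 19.4, 0.776 and 38.4 CPM.

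A list of 18 oxygen-regulated genes was put together after these values were seen. Vegfa, the vascular growth factor, had 54.5, 111, 37.2 and 246 CPM, in the same order as Slc16a3. Ddit4, a stress-induced inhibitor of mTOR, had 352, 422, 554 and 876 CPM, and Egln1, an oxygen-sensing hydroxylase, was level with 132, 152, 131 and 144 CPM. The list summed to 951, 1054, 1079 and 1865 CPM in WT replicates 1 to 4, so WT replicate 4 stood apart and the other samples lay close together. Of its 13 members with a mean of at least 10 CPM, 10 were highest in WT replicate 4 (against 26.9% of all genes). Of the same 13, 8 reached 2-fold (61.5% against 13%). Because the list was chosen with these values known, both counts are a description only.

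The upstream regions of glycolysis genes were searched for the core of the hypoxia response element, ACGTG. Both strands were searched (CACGT on the plus strand), with CACGTG counted once. A match lay in the 250 bases upstream of the start in 9 of 20 glycolysis genes with a sequence (45%). The share was 16.4% of 27025 genes and 22.6% of 7029 genes with a mean of at least 10 CPM. The regions of the 2 genes of lactate production and export are shown with each match in capitals, from RefSeq on build GRCm38.p6. The Ldha region (chr7:46845554-46845803, plus strand, the first of 2 starts in the table) holds 3 matches, and the Slc16a3 region (chr11:120948817-120949066, plus strand) holds 2.
Ldha: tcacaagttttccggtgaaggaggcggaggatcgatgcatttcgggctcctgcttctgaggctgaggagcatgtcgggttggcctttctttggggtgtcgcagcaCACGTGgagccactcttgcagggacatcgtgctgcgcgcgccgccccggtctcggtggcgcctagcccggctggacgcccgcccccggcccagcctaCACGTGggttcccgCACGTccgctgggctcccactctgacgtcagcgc
Slc16a3: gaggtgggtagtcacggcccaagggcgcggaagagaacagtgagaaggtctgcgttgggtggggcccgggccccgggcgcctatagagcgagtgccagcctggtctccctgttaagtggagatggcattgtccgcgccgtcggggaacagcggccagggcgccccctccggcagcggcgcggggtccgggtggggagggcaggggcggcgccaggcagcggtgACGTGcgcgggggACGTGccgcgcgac
A match describes the letters only, and Tpi1, which followed the order of samples of Slc16a3, holds none in this window. The part of oxygen in the levels of these samples was not tested.

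Respiration was expressed at a high level in all samples. The 83 nuclear genes of the respiratory chain summed to 32155, 37375, 34339.6 and 40893 CPM, lowest in WT replicate 1. Of the 77 with a mean of at least 10 CPM, 48 were highest in WT replicate 4 (against 26.9% of all genes). Atp5b, a subunit of ATP synthase, had 1923 ± 221 CPM and Cox8a, a subunit of cytochrome c oxidase, had 1897 ± 172 CPM (SD, n = 4). Of the 13 protein genes of the mitochondrial genome, 10 were highest in WT replicate 4 (against 26.9% of all genes) and 5 reached 2-fold (38.5% against 13%). They summed to 29942, 24620, 31697 and 38206 CPM, lowest in WT replicate 2. mt-Nd4, a subunit of complex I, had 2142, 1267, 3246 and 3812 CPM. TCA cycle genes summed to 4718, 4578, 4622 and 5472 CPM, highest in WT replicate 4. So were 13 of the 20 genes (against 26.9% of all genes), and 1 of 20 reached 2-fold (5% against 13%).

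Synthesis of lipids was another large share of metabolism. Scd2, the brain form of stearoyl-CoA desaturase, had 1552, 1369, 1633 and 2520.4 CPM, and was highest in WT replicate 4. The fatty acid synthesis list summed to 3657, 3169, 3498 and 4809 CPM. Of its 12 genes, 7 were highest in WT replicate 4 (against 26.9% of all genes) and 0 reached 2-fold (against 13% of all genes). Hmgcs1, which starts the cholesterol pathway, had 639, 542, 623 and 901 CPM. Of 21 cholesterol genes, 2 reached 2-fold (9.52% against 13% of all genes). Psat1 and Phgdh, which make serine from a glycolytic intermediate, had 373 ± 59.0 and 173 ± 12.9 CPM (SD, n = 4). The serine and one-carbon list summed to 1373, 1320, 1374 and 1107.5 CPM, lowest in WT replicate 4. Glud1 and Glul, which release ammonia from glutamate and fix it in glutamine, were highest in WT replicate 4, with 248, 233, 242 and 509 CPM for Glud1 and 93.3, 133, 99.3 and 251 CPM for Glul.

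Genes of translation took a large share of counts. The 84 cytosolic ribosomal protein genes alone summed to 39982, 45877, 44744 and 36816 CPM. With the counts of matched copies added to their coding genes, a setting chosen after seeing the data, they summed to 145131, 173665, 166879 and 135583 CPM, and WT replicate 4 stayed the lowest. Under TMM factors WT replicate 1 was the lowest instead, with a sum of 37175 against 37591 in WT replicate 4. Of the 76 members with a mean of at least 10 CPM, 6 reached 2-fold (7.89% against 13%). Of 21 translation factors, 0 reached 2-fold (against 13% of all genes). They summed to 11715, 11393.5, 11371 and 9756 CPM, lowest in WT replicate 4. Rack1, a scaffold on the small subunit, had 1367, 1534, 1512 and 1147 CPM.

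**Figure D4:**
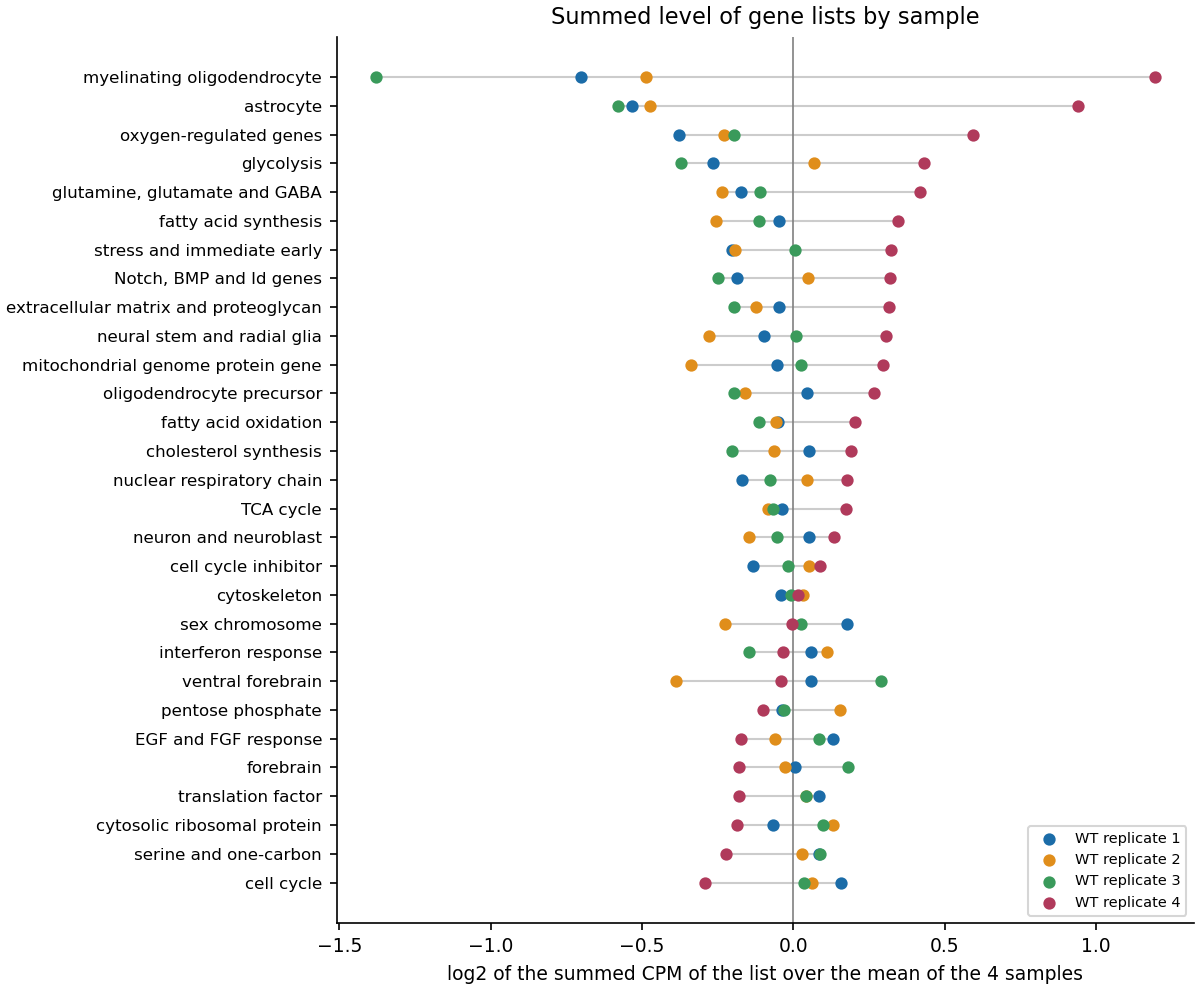
log2 of the summed CPM of each gene list over its mean in the 4 WT samples, 1 point per sample, for lists with a mean sum of at least 100 CPM. WT replicate 4 lies furthest to the right for myelinating oligodendrocyte, astrocyte, oxygen-regulated and glycolysis genes. It lies furthest to the left for cell cycle genes, then for serine and one-carbon genes and then for ribosomal protein genes. The oxygen-regulated list was put together after the values were seen.

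The spread of single genes was then measured over all genes with a mean of at least 10 CPM. Between the highest and the lowest sample, 1247 of 9566 genes (13%) differed by 2-fold or more, 130 by 4-fold and 34 by 10-fold. The median coefficient of variation (CV) was 17.5%, against 7.36% for counting alone at these depths. The common biological coefficient of variation, which edgeR estimates as the spread beyond counting, was 0.215 and fell to 0.173 without WT replicate 4. Log2 levels of the samples had Pearson correlations between 0.960 and 0.976 across 15010 genes, which share annotation and protocol. The closest pair was WT replicates 1 and 3, with 172 genes over 2-fold, and the most distant was WT replicates 2 and 4, with 584.

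WT replicate 4 stood furthest from the others. At least 2-fold above the median of the other 3 samples lay 257 genes in WT replicate 4 (2.69% of 9566), 62 in WT replicate 1 (0.648%), 38 in WT replicate 2 (0.397%) and 28 in WT replicate 3 (0.293%). At least 2-fold below lay 124 genes in WT replicate 4 (1.3%), 41 in WT replicate 1 (0.429%), 127 in WT replicate 2 (1.33%) and 112 in WT replicate 3 (1.17%). Some genes above in a sample can have passed the filter on the mean CPM through that sample alone. Without WT replicate 4 the 1247 genes over 2-fold fell to 575, and without WT replicate 2 to 747. The 38 genes above in WT replicate 2 had a median length of 833 bases, and 22 of them were pseudogenes (57.9%, against 8.06% of all genes at that level). All 9566 genes had a median length of 4454 bases and the 127 genes below in WT replicate 2 one of 5647 bases. For the 2392 longest genes (at least 7077 bases), the median log2 ratio to the median of the other samples was -0.24 in WT replicate 2 and 0.23 in WT replicate 1. For the 2392 shortest genes (at most 2561 bases) it was 0.17 in WT replicate 2 and -0.07 in WT replicate 1. WT replicate 2 is the only WT sample of batch 1 alone, so the batch and the sample cannot be told apart.

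**Figure D5:**
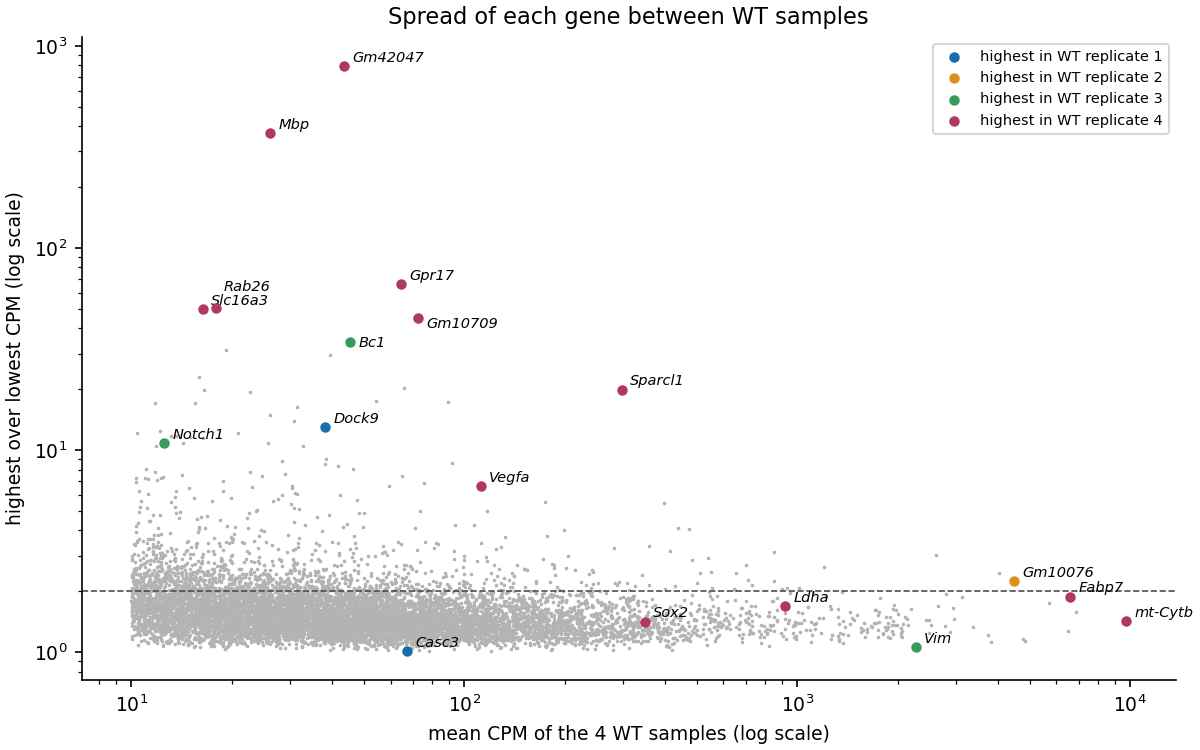
Ratio of the highest to the lowest CPM against the mean CPM of the 4 WT samples (both log scales), 1 point per gene with a mean of at least 10 CPM, with 0 counts taken as 3 and 2-fold dashed. Of 9566 genes, 1247 lie above the dashed line, and ratios with 1 to 3 counts in the lowest sample, as for Gm42047 and Mbp, carry a large counting error.

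Genes found in 1 sample almost alone were of several kinds. The lncRNA gene Gm42047 had 1, 1 and 2 counts in WT replicates 1 to 3 and 1011 counts (173 CPM) in WT replicate 4. Rab26, a GTPase of secretory vesicles, had 1.28, 3.70, 1.81 and 64.8 CPM. Dynlt1b, a light chain of dynein, had 2.81, 2.39, 3.62 and 55.0 CPM, and so stood out in WT replicate 4 alone. Its close relatives did not: Dynlt1a had 15.3, 13.1, 19.9 and 26.1 CPM, Dynlt1c 41.2, 27.6, 55.3 and 45.1 CPM, and Dynlt1f 43.0, 47.9, 63.6 and 57.6 CPM, and reads may be split among these 4 genes. Brachyury (T), a mesoderm factor, had 17.1, 19.4, 17.8 and 2.56 CPM, and Grb10, an adaptor of growth factor receptors and an imprinted gene, had 24.3, 17.0, 39.3 and 3.25 CPM, both low in WT replicate 4. WT replicate 1 stood above in Dock9, an activator of Cdc42, with 102, 7.83, 34.1 and 8.89 CPM. WT replicate 2 stood below in Bc1, a short brain RNA made by RNA polymerase III, with 51.6, 2.39, 82.0 and 45.3 CPM.

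Rpl29, a protein of the large ribosomal subunit, differed within its family more than in sum. Rpl29 itself had 20.5, 10.01, 11.6 and 175 CPM in WT replicates 1 to 4. Its copy Gm10709 had 8.18, 7.83, 5.95 and 268 CPM, so both were far higher in WT replicate 4. The copies Gm13841 and Gm8210 were lower there, with 787, 923, 722 and 406 CPM for Gm13841 and 836, 733, 699.7 and 341 CPM for Gm8210. The 10 genes together had 1897, 2166, 1833 and 1530.3 CPM, a ratio of 1.42 between the highest and the lowest.

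Gm13841 and Gm8210 share a letter that the other members of the family lack. Positions are counted from 1 at the start codon of Rpl29, and the windows run from position 57 to 86, with position 72 and every difference from Rpl29 in capitals (GRCm38, Gencode transcripts). They are shown because position 72 sets these 2 copies apart, a choice made after the values were seen. Rpl29 lies at chr9:106430327-106430356 on the plus strand, inside its coding sequence. Gm13841 lies at chr5:115802074-115802103 (minus), Gm8210 at chr1:43189212-43189241 (plus), Gm10709 at chr9:7751781-7751810 (plus), Gm5561 at chr1:179520772-179520801 (minus), Gm48088 at chr12:11099650-11099679 (plus) and Gm14036 at chr2:134804002-134804031 (plus).
Rpl29: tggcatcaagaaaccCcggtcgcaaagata
Gm13841: tggcatcaagaaaccAcggtcgcaaagata
Gm8210: tggcatcaagaaaccAcggtcgcaaagata
Gm10709: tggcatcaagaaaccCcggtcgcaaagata
Gm5561: tggcatcaagGaaccCcggtcgcaaagata
Gm48088: tggcatcaGgaaaccCcggtcgcaaagata
Gm14036: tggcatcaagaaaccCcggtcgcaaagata
Gm13841 and Gm8210 carry C72A, and the other 7 copies do not. The 2 copies with this change summed to 1623, 1656, 1421 and 747 CPM, and the 8 genes without it to 275, 511, 411 and 783 CPM. The first group therefore held 85.5, 76.4, 77.6 and 48.8% of the family, lowest in WT replicate 4. Gm5561 and Gm48088, which also lack C72A, had 47.8 and 31.3 CPM in WT replicate 4 and at most 6.53 and 4.13 CPM in the other samples. Gm14036, which lacks it too, had 218, 445, 359 and 227 CPM and did not stand out in WT replicate 4. Nor did Gm15454, with 15.1, 22.6, 15.8 and 14.2 CPM, lowest there. The remaining copies, Gm6344 and Gm8860, had at most 14.9 CPM in any sample, and like Gm15454 they have the letter of Rpl29 at position 72. Of 363 families with a copy at a mean of at least 10 CPM, 96 had such a copy that reached 2-fold. The 13% of all genes counts single genes, while a family with several copies has several chances to be counted, so the 2 are not alike. In 80 of the 96 the family sum did not reach 2-fold, though a sum of several members tends to vary less in any case.

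Among lncRNA genes, the second and the third by CPM were Ndufb1-ps, with 425, 580, 547 and 653 CPM in WT replicates 1 to 4, and Gm3764, with 665, 599, 475 and 456 CPM. Ndufb1-ps was highest in WT replicate 4. The first was Gm10076, annotated as a lincRNA, with 3935, 6619, 4421 and 2952 CPM, which matched the ribosomal protein gene Rpl41 and is uncertain like the pseudogenes. Gas5, a host of small nucleolar RNAs, had 352, 312, 407 and 352 CPM, and Pantr1, a neighbour of the neural factor Pou3f3, had 225, 288, 265 and 333 CPM. Malat1, a nuclear RNA found in most cells, had 344, 157, 257 and 253 CPM and was lowest in WT replicate 2.

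At the other end, some genes had nearly the same CPM in all samples. Casc3, a protein of the exon junction complex, had 67.8, 67.5, 67.0 and 67.0 CPM, a ratio of 1.01. Tbcb, a folding factor of tubulin, had 119, 120.3, 120.0 and 121 CPM, and Arf4, a GTPase of the Golgi, had 275, 281, 280.0 and 281 CPM. They were chosen as the least variable of the genes with a mean of at least 50 CPM, so their closeness is a description, and 891 of the 9566 genes (9.31%) stayed under 1.2-fold.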

How the data were processed

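Gene counts of the 4 WT samples were analysed as deposited. To make these counts, the authors aligned the long reads to mm10 with minimap2 (version 2.17, per the labels) and counted them per gene with featureCounts on Gencode M23, and they summed the reads of WT replicate 1 from both batches. Whether strand was used is not given in the sources used here, so overlapping and antisense genes are uncertain. The deposited length per gene, in bases, gave CPM per kb. CPM was the count over the total gene count of the sample, from 3.87 to 5.85 M. Symbols and coordinates came from Gencode M21 (GRCm38), which matched all but 181 of 55335 identifiers.

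There was 1 group, so no groups were compared beyond the level of Smchd1, which is printed for the null samples without a test. Pairs of samples were set against sampling noise (chi-square over genes), and single samples were screened with Dixon's criterion. Levels are means ± SD over samples, and a gene was said to differ by 2-fold where the highest CPM was at least 2 times the lowest, with 0 counts taken as 3. The filter of a mean of at least 10 CPM was taken over all 4 samples, so a gene can pass it through 1 high sample. Where members lowest in a sample are counted, the share over all genes was not computed. The biological coefficient of variation came from edgeR 4.0.16 (estimateDisp, TMM) in R 4.3.3 and DESeq2 1.42.0 gave alternative size factors. The estimate of spread and the 2-fold count were tested on simulated data. Pseudogenes were matched with blastn 2.17.0, and copies were aligned with MAFFT 7.526.

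The members and lists were chosen with earlier results of these data known. Genes were named by a rule: the 4 label markers, Smchd1, sex-linked genes, the 4 highest members of each list, members with at most 3 counts throughout, the 20 highest genes by CPM and by CPM per kb, the 10 highest lncRNA genes and pseudogenes, the 15 most and 10 least variable, and the 5 furthest above and below in each sample. Named after their values were seen were Hes5, Six3, Gfap, Pdgfra, Pcna, Vegfa, Egln1, the coding genes and lower copies of the families described, and the relatives of Dynlt1b. Alternatives were other scalings, filters and totals, thinned counts, removal of the length trend and each sample left out. Some named genes and 1 sequence are not reported here.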

Additional observations from a re-analysis of the deposited data

Results flagged for a closer look

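In 23 of 143 values tested, 1 of the 4 WT samples lay so far from the nearest other that the gap took most of the whole range (above the 95% critical value of Dixon for 4 samples). Chance alone gives about 1 in 20 such cases, the values are not independent, and many of the genes were named for their spread. In 19 of the 23 the sample was WT replicate 4 at the high end, in 2 it was WT replicate 4 at the low end and in 2 it was WT replicate 2 at the low end. What sets WT replicate 4 apart was not tested.

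Among summed lists, WT replicate 4 stood out at the high end with 5073 CPM for astrocyte genes, 5472 CPM for TCA cycle genes, 1492 CPM for genes of glutamine, glutamate and GABA, and 1865 CPM for oxygen-regulated genes. The oxygen-regulated list was put together after the values were seen, so its place here is a description only. Among stem cell, regional and neuronal genes WT replicate 4 stood out with 1006 CPM for Slc1a3, 3150 CPM for Ptn and 57.9 CPM for Elavl3. Among glial genes it did so with 921 CPM for Sparcl1, 905 CPM for Apoe, 64.8 CPM for S100b, 205 CPM for Gpr17 and 95.9 CPM for Mbp.

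Further genes with WT replicate 4 far above were Glud1 at 509 CPM, Hspa8 at 468 CPM, Rpl29 at 175 CPM and its copy Gm10709 at 268 CPM, Gm42047 at 173 CPM, Rab26 at 64.8 CPM and Dynlt1b at 55.0 CPM. For Hspa8 this holds for the coding gene alone, since the family sum with its copies was lowest in WT replicate 4, at 2149 CPM. WT replicate 4 lay far below the others for Rrm2 at 236 CPM and T at 2.56 CPM. WT replicate 2 lay far below the others for Cdkn2a at 27.6 CPM and Hspa5 at 277 CPM.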

How the results depend on the processing

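Mean levels of the 126 named genes moved by less than 1 SD between samples under TMM factors and DESeq2 size factors. These factors lay between 0.962 and 1.08, so a mean over the samples could hardly move. Leaving out 1 of 4 samples cannot move a mean by that much either. Of the 104 named genes with a mean of at least 1 CPM, 90 had the same highest sample under TMM factors and 84 the same lowest sample. Under DESeq2 size factors the counts were 94 and 88. Without mitochondrial genome genes in the total, nuclear protein coding genes took 78.4%. With pseudogene counts added to their coding genes, chosen after seeing the data, nuclear protein coding genes took 92.6%, processed pseudogenes 0.748%, other pseudogenes 0.0522%, the mitochondrial genome 5.51% and lncRNA 0.908%. In the same setting the mean sum was 6425 CPM for glycolysis, 155314 for ribosomal protein, 54257 for mitochondrial genome and 41842 for nuclear respiratory chain genes. With pseudogenes left out of the total it was 16851 CPM for stem cell, 1961 for oligodendrocyte precursor, 6483 for cell cycle, 52039 for ribosomal protein, 38569 for mitochondrial genome and 44929.8 for respiratory chain genes. On average 13002 genes per sample had at least 10 counts, and per kb 98 genes held 50% of the level. Genes over 2-fold numbered 255 of 3997 at a mean of at least 50 CPM, 2061 of 11639 after edgeR's filter and 19290 of 32646 with no filter, where most have few counts. Leaving out 1 sample gave 575 (without WT replicate 4) to 1003 (without WT replicate 3), and removing the length trend gave 986. The biological coefficient of variation was 0.243 with no filter, and 0.173 (without WT replicate 4) to 0.231 (without WT replicate 3) with 1 sample left out. The mean correlation of 0.967 became 0.952 at 10 CPM or more and 0.981 with no filter. Of 200 alternatives for the other 25 lists, 25 moved a mean sum by 1 SD or more, through a total or copies that change by construction. No paired analysis was possible because only 1 group was described.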

Other observations

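Cytoskeletal genes held a nearly equal share of counts in all samples, with sums that differed by 1.05 times, while their members did not. Under TMM factors the sums differed by 1.17 times and under DESeq2 size factors by 1.14 times, lowest in WT replicate 1. Actb, the cytoplasmic actin, had 2094, 1911, 1525 and 1297 CPM in WT replicates 1 to 4, and Tmsb4x, which binds actin monomers, had 2105, 2071, 2890 and 3489 CPM. Actb was lowest and Tmsb4x highest in WT replicate 4. Of the 20 members, 4 differed by 2-fold or more (20% against 13% of all genes at that level). In the extracellular matrix list, Sparc, a collagen-binding glycoprotein, had 829, 967, 642 and 833 CPM, and Tnc, the glycoprotein tenascin C of germinal zones, had 655, 456, 818 and 524 CPM, with different samples at the top.

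Stress genes did not move as 1 group. Hspa5, the chaperone of the endoplasmic reticulum, had 335, 277, 327 and 334 CPM, whereas Hspa8, the cytosolic chaperone, had 234, 214, 217 and 468 CPM and was highest in WT replicate 4. Hspa8 held 11.5% of its family, and with its 4 pseudogene copies added the family had 2707, 2468, 2570.0 and 2149 CPM, lowest in WT replicate 4, so the direction turned. In the interferon response list, B2m and H2-K1, the light and heavy chains of class I histocompatibility molecules, had their highest levels in different samples. B2m had 209.6, 215, 201 and 265 CPM and H2-K1 had 233, 289, 191 and 151 CPM. Pgls, an enzyme of the pentose phosphate pathway, had 299, 404, 293 and 255 CPM, lowest in WT replicate 4.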
